A study of Mus musculus with 4 samples.

Results

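The 10 genes described here, Fos, Fosb, Junb, Egr1, Egr3, Arc, Npas4, Nr4a1, Dusp1 and Ier2, are immediate early genes that are widely used to report neuronal activity. They were picked by name from a table of 18674 gene names, and each of the 10 had a single row in it. Their RNA was read in lumbar cord from wild type (WT) animals and from ALS (G93A) mice, which carry a human SOD1 transgene with the G93A mutation and lose motor neurons. The G93A line is a high-expresser strain bred on a B6/SJLF1 background, and each genotype was given spermidine (SD), a natural polyamine, or PBS as vehicle for 30 days. The paper's methods give 4 injections a week for a longer course, and its results give 5 a week before the motor tests. Mice were 100 days old when the cord was taken, and the methods give a dose of 5 mg/kg of SD by intraperitoneal injection and the use of males in the treatment studies. The 4 conditions (G93A + SD, G93A vehicle, WT + SD and WT vehicle) had 1 library each, and the number of animals behind it is not given in the sources used here. So no difference has a replicate check, no test between conditions was made, and genotype or treatment cannot be told apart from any other difference between the animals. Comparisons of genotype and of SD share libraries with each other, and their values are therefore set side by side without a correlation.

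Immediate early genes are transcribed within minutes of a stimulus, without new protein synthesis, when calcium entry or growth factor signals activate kinases that act on CREB, SRF and its partners at their promoters. Fos, Fosb and Junb encode subunits of the AP-1 transcription factor, Egr1 and Egr3 zinc finger factors, Nr4a1 an orphan nuclear receptor, and Npas4 a bHLH-PAS factor. Arc encodes a postsynaptic protein that drives the removal of AMPA receptors, Dusp1 a phosphatase that switches off MAP kinases, and Ier2 a small nuclear protein. Arc and Npas4 are largely restricted to neurons, and Npas4 answers mainly to calcium entry. Fos, Junb, Egr1, Nr4a1, Dusp1 and Ier2 are induced in glia, immune cells and vessels as well. In bulk tissue, fewer cells of a type and less RNA per cell cannot be told apart.

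The deposited values were read as RPKM, the reads of a transcript divided by its length and by the depth of its library. Depth was estimated from the commonest low product of value and transcript length, which was taken as 1 read pair, and came to between 36800000 and 38600000 read pairs per library. In all 4 libraries Gfap, Snap25 and Chat were present, and the summed RPKM of 4 skeletal muscle markers was between 0.296 and 0.378. The microglial and macrophage markers, 8 genes, summed to 73.6 and 67.5 RPKM in WT (vehicle, then SD) and to 274 and 287 RPKM in G93A. A difference counted as a change of the required size when it reached 1.5-fold on the scale of log2(RPKM + 0.1).

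Promoter sequences from RefSeq (GRCm38.p6) were available here for 6 of the 10 members, and the search covered the 250 bases before the annotated start. All 6 held the core of the cAMP response element, to which CREB binds, read as TGACG on either strand, against 17.8% of the 32851 promoters in the same table. Nr4a1 had 4 matches, Dusp1 had 3, Fos and Npas4 had 2 each, and Fosb and Junb had 1 each. Dusp1 alone among them held the full palindrome TGACGTCA, which counts as a core match on each strand, and 1.55% of all promoters held it. The letters TATAAA on the sense strand were found in Fos alone, 33 bases before the start, and in 7.59% of all promoters. The EGR site GCGNGGGCG, on either strand, was found in Fosb and Nr4a1 and in 4.70% of all promoters. No CArG box, the site of SRF, and no AP-1 site (TGANTCA) lay in the window of any of the 6, and 1.47% and 6.75% of all promoters held them. A match of letters is not a measured binding site, and sites further away were not searched. The stretches below are shown because these genes differed between the genotypes in RNA and hold the core in a window free of annotated exons. Each is 120 bases, 5′ to 3′ in the direction of transcription, with the TGACG core (either strand), the full palindrome and TATAAA in capitals. They lie at chr12:85473761-85473880 on the plus strand (Fos), chr8:84978749-84978868 on the minus strand (Junb), chr15:101266726-101266845 on the plus strand (Nr4a1) and chr17:26508544-26508663 on the minus strand (Dusp1).
Fos: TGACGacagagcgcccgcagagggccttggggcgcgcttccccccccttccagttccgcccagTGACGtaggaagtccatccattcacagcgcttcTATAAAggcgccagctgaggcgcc
Junb: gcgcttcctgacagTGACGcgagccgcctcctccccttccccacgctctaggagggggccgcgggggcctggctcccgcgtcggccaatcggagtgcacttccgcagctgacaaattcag
Nr4a1: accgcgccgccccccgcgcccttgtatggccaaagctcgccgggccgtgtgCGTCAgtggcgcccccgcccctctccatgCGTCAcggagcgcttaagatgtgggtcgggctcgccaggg
Dusp1: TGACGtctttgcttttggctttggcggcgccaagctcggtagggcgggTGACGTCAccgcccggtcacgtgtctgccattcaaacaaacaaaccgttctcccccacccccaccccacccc
In Fos the core nearer the start lies 66 bases before it, and in Junb the only core lies 106 bases before it. In Dusp1 the palindrome begins 143 bases before the start. In Npas4 the cores begin 179 and 169 bases before the RefSeq start, inside an exon of the GENCODE M21 transcript, which starts further upstream, so no sequence is shown.

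In WT vehicle Egr1 was the highest member with 8.99 RPKM, followed by Arc with 6.36, Dusp1 with 6.28 and Fos with 5.78 RPKM. Nr4a1 had 2.82, Junb 2.28 and Ier2 1.32 RPKM. Egr3 with 0.511, Fosb with 0.501 and Npas4 with 0.50 RPKM were lowest, close to each other and at about 74, 70 and 67 estimated read pairs. By their mean over the 4 libraries the members lay between the 24.9th percentile of all gene names (Npas4) and the 80.7th (Fos). In both G93A libraries the order at the top was different. Fos was first with 23.4 RPKM in G93A vehicle and 30.3 in G93A + SD, above Egr1 with 21.0 and 17.3 and Dusp1 with 10.3 and 12.9 RPKM.

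**Figure D1:**
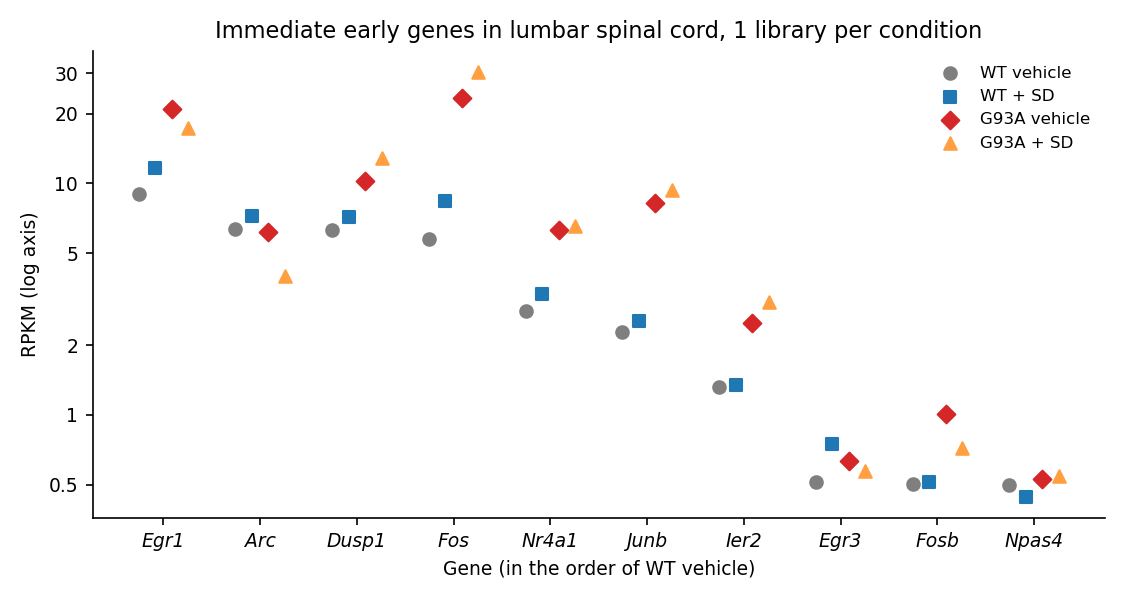
RPKM of the 10 members (log axis) in the 4 libraries, 1 point per library, with genes ordered by their level in WT vehicle. Fos and Junb stand well apart between the genotypes, from 5.78 and 8.37 to 23.4 and 30.3 RPKM for Fos, while the 4 points of Npas4 lie between 0.443 and 0.545 RPKM.

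The first comparison asks how the genes differed between G93A and WT cord without SD. In this pair 7 of the 10 members were at least 1.5-fold higher in G93A vehicle and 0 were lower, while 14.4% of all 18674 names were higher and 5.31% lower by the same rule. The median log2 fold change of the members was 0.87, against 0.05 over all names. The members past the threshold were Fos, Junb, Egr1, Nr4a1, Fosb, Ier2 and Dusp1. Arc, Npas4 and Egr3 were not among them.

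Fos, the AP-1 subunit most often used as an activity marker, had 5.78 and 8.37 RPKM in the WT libraries (vehicle, then SD) and 23.4 and 30.3 RPKM in the G93A libraries. Both G93A libraries were far above both WT libraries. The ratio of G93A vehicle to WT vehicle was 4.06, with a 95% counting interval of 3.66 to 4.51 (exact Clopper-Pearson limits on the estimated read pairs, covering counting error only and not the spread between animals). Junb, its dimer partner, had 2.28, 2.55, 8.27 and 9.38 RPKM in the same order of libraries, and the ratio under vehicle was 3.63 (3.03 to 4.36). The genotypes stood apart for Junb as they did for Fos. Fosb was scarcer, with 0.501, 0.512, 1.01 and 0.719 RPKM, and its ratio under vehicle was 2.01 (1.5 to 2.71) from 145 against 70 estimated read pairs.

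Egr1, the zinc finger factor also known as Zif268, had 8.99 and 11.7 RPKM in WT and 21.0 and 17.3 RPKM in G93A, each with vehicle first. Its highest library was G93A vehicle, and the ratio under vehicle was 2.33 (2.17 to 2.51). Egr3, a target of the same signals, had 0.511, 0.751, 0.631 and 0.573 RPKM. For Egr3 the genotypes overlapped, with both G93A libraries between the WT libraries, and the ratio under vehicle was 1.23 (0.897 to 1.69). Nr4a1, which encodes NUR77, had 2.82, 3.33, 6.28 and 6.54 RPKM and a ratio of 2.23 (1.92 to 2.59).

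Dusp1, which dephosphorylates MAP kinases and so ends the signal that induces it, had 6.28 and 7.15 RPKM in WT and 10.3 and 12.9 RPKM in G93A, and its ratio under vehicle was 1.64 (1.46 to 1.84). Ier2 had 1.32, 1.35, 2.48 and 3.08 RPKM, and its ratio was 1.88 (1.41 to 2.53). The genotypes did not overlap for either gene. The counting intervals of Dusp1, Ier2 and, by a narrow margin, Fosb began below 1.5, so that counting error alone leaves their side of the threshold unsettled.

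Arc, whose RNA is carried into dendrites, had 6.36 and 7.27 RPKM in WT and 6.15 and 3.99 RPKM in G93A. The vehicle libraries were within counting error of each other, with a ratio of 0.966 (0.869 to 1.07) from 714 and 716 estimated read pairs. Npas4 had 0.50, 0.443, 0.528 and 0.545 RPKM, with a ratio of 1.06 (0.747 to 1.49). For Arc the interval excludes a 1.5-fold difference between the vehicle libraries in either direction. For Npas4 it does so as well, though narrowly, because the gene was read in so few pairs.

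The same comparison between the libraries given SD gave 5 members past 1.5-fold on the side of G93A + SD, against 17.1% of all names, and 1 lower, against 7.82% of all names. The median of the members was 0.70 on the log2 scale and that of all names 0.05. Junb was 3.69-fold higher (3.12 to 4.39), Fos 3.62-fold (3.33 to 3.96), Ier2 2.28-fold (1.74 to 3.0), Nr4a1 1.97-fold (1.72 to 2.26) and Dusp1 1.80-fold (1.62 to 2.01). Egr1, at 1.48-fold (1.38 to 1.59), and Fosb, at 1.40-fold (1.04 to 1.92), stayed under the threshold, Egr1 just under it. Arc was the lower gene, with 7.27 RPKM in WT + SD against 3.99 in G93A + SD, a ratio of 0.549 (0.490 to 0.616). Egr3 had a ratio of 0.763 (0.571 to 1.02) and Npas4 of 1.23 (0.871 to 1.76), and both intervals include 1.

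**Figure D2:**
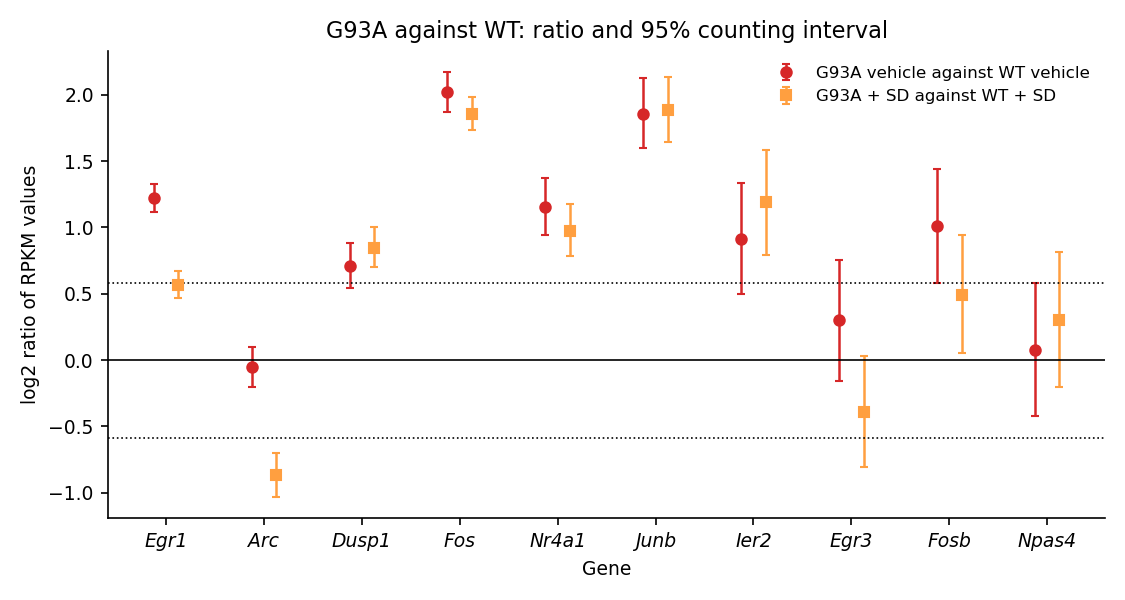
The log2 ratio of RPKM in G93A to WT for each member, under vehicle (circles) and under SD (squares). Bars are 95% counting intervals from estimated read pairs, with no replicate error in them, and dotted lines mark 1.5-fold. Fos and Junb lie near 2 in both pairs, Npas4 and Egr3 have intervals that include 0, and Arc lies at 0 under vehicle and below the lower dotted line under SD.

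Taking both libraries of each genotype together, a comparison added after the values were seen, 8 members were higher in both G93A libraries than in either WT library, as were 39.7% of all names, and 1 member, Arc, was lower in both, as were 28% of all names. The gap of Arc was 1.03-fold and lay between the vehicle libraries, which were within counting error of each other. With a gap of at least 1.5-fold between the nearest libraries, 4 members were higher in G93A, against 10.4% of all names, and 0 were lower, against 2.28%. These were Junb, with a gap of 3.25-fold, Fos with 2.80-fold, Nr4a1 with 1.89-fold and Ier2 with 1.84-fold. Egr1, Dusp1 and Fosb had gaps of 1.48-, 1.44- and 1.40-fold, and Npas4 of 1.06-fold. Egr3 was the only member whose genotypes overlapped.

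The next comparisons ask what differed with SD within a genotype. In WT cord 0 members were at least 1.5-fold higher in WT + SD than in WT vehicle and 0 were lower, and 2.25% and 2.80% of all names were. The median of the members was 0.19 and that of all names 0.00 on the log2 scale, with 9 of the 10 members and 9546 of the 18674 names above 0. Egr3, from 0.511 to 0.751 RPKM (1.47-fold, 1.08 to 1.99), and Fos, from 5.78 to 8.37 RPKM (1.45-fold, 1.28 to 1.64), were nearest to the threshold. Egr1 was 1.30-fold higher (1.19 to 1.41), and Arc 1.14-fold (1.03 to 1.26). The 4 red blood cell markers measured, all at least 1.5-fold higher, summed to 28.0 RPKM in WT vehicle and 56.4 in WT + SD. Their part in the small differences between the WT libraries was not tested.

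In G93A cord 0 members were past 1.5-fold upward with SD and 1 was past it downward, when 2.97% of all names were higher and 2.55% lower. The lower member was Arc, from 6.15 to 3.99 RPKM, a ratio of 0.649 (0.577 to 0.731) from 471 against 714 estimated read pairs. Its interval reaches both sides of the threshold, so counting error alone leaves this call unsettled, and with a pseudocount of 1 RPKM it was lost. The median of the members was 0.05 and that of all names 0.01 on the log2 scale. Fosb, with a ratio of 0.713 (0.549 to 0.923), and Egr1, with 0.825 (0.777 to 0.875), were also below G93A vehicle by more than counting error. Fos was above it at 1.30-fold (1.22 to 1.38), Dusp1 at 1.25-fold (1.14 to 1.38) and Junb at 1.13-fold (1.01 to 1.27). Nr4a1, Ier2, Egr3 and Npas4 differed by less than counting error. Between the genotypes the direction of the SD difference was opposite for 5 of the 10 members, a share near the 44.6% of all names. The 5 neuron markers measured summed to 1163 RPKM in G93A + SD against 1347 in G93A vehicle, with Snap25 at 661 and 782 RPKM as the largest term and Syt1, at 41.2 and 37.1 RPKM, going the other way, and the 7 motor neuron markers summed to 68.6 against 85.7 RPKM. Of these 12 marker genes 1, Chat, was lower by at least 1.5-fold (6.55 and 4.33 RPKM), and the part of neuronal content in the value of Arc was not tested.

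**Figure D3:**
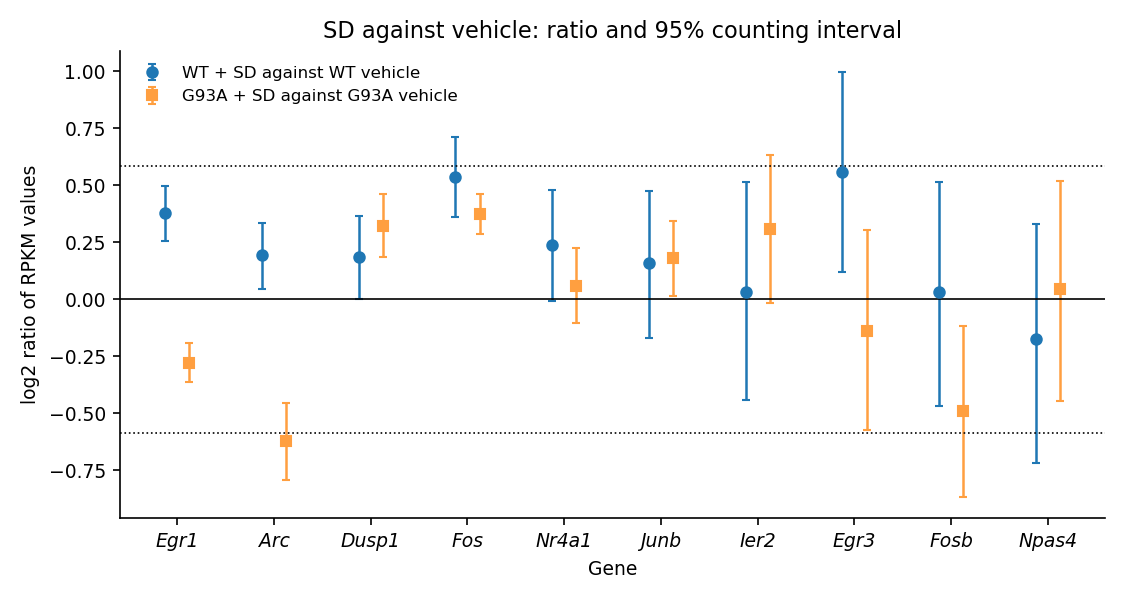
The log2 ratio of RPKM with SD to RPKM with vehicle for each member, in WT (circles) and in G93A (squares). Bars are 95% counting intervals and dotted lines mark 1.5-fold. Arc and Egr1 lie above 0 in WT and below 0 in G93A with intervals that do not reach 0, whereas Fos and Dusp1 lie above 0 in both.

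The other genes of these families, from lists written with earlier results of these data known, are set against the shares of all names past 1.5-fold on the side of G93A, 14.4% under vehicle and 17.1% under SD. Of the 4 other AP-1 genes, 3 were past 1.5-fold on the side of G93A under vehicle, and 3 under SD. Fosl2 had 1.62 and 4.80 RPKM in WT vehicle and G93A vehicle, Jun 9.15 and 18.4 RPKM, and Fosl1 1.52 and 2.93 RPKM. Jund, which is made in resting cells, had 18.3 and 15.9 RPKM. Of the 4 other EGR factors and NAB corepressors, 2 were past 1.5-fold on the side of G93A under vehicle and 2 under SD. Egr2 was the furthest apart, with 0.116 and 0.0829 RPKM in WT and 1.40 and 1.68 RPKM in G93A, vehicle first. Nab1 and Egr4 were short of the threshold, with log2 differences of 0.22 and 0.39 under vehicle and 0.27 and -0.13 under SD. Nab2, which EGR factors induce and which represses them, had 2.97 and 6.02 RPKM under vehicle. Of the NR4A receptors, Nr4a3 had 0.707 and 1.5 RPKM under vehicle and Nr4a2 had 0.527 and 0.564 RPKM, and under SD neither passed the threshold, with log2 differences of 0.54 and -0.16.

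Of the 8 other MAP kinase phosphatases, 1 was at least 1.5-fold higher under vehicle (12.5%, near the share of all names) and 4 under SD (50%). Dusp5, a nuclear phosphatase for ERK, was the furthest apart, with 0.716 and 1.51 RPKM under vehicle and 0.412 and 1.88 RPKM under SD. Dusp8 had 9.77 and 7.18 RPKM under vehicle. Of the 3 other IER genes, Ier5 was past the threshold under vehicle, with 2.79 and 5.68 RPKM, and Ier3 had 5.73 and 6.15 RPKM. Under SD 2 of the 3 were past it, Ier5 and Ier5l, and the log2 difference of Ier5l was 0.55 under vehicle and 0.68 under SD.

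A further list held 25 rapid response genes that are induced in many cell types, 2 of which (Ier3 and Ier5) are IER genes as well. Under vehicle 20 of the 25 were at least 1.5-fold higher in G93A and 0 lower, with a median of 1.05, and under SD 21 were higher and 0 lower, with a median of 1.41. Atf3, a stress-induced factor of injured neurons and other cells, had 0.606 RPKM in WT vehicle and 14.2 in G93A vehicle. Socs3, a feedback inhibitor of cytokine signals, had 0.424 and 6.82 RPKM. Cebpd had 0.608 and 8.35 RPKM, and Cyr61, a matricellular protein gene induced through SRF and YAP, had 1.24 and 17.6 RPKM. Cyr61 was also the only gene of the list past 1.5-fold between the G93A libraries, with 35.5 RPKM in G93A + SD.

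Of the 16 effector genes of neuronal activity, under vehicle 1 was at least 1.5-fold higher in G93A and 1 was lower, which is 6.25% on each side against 14.4% and 5.31% of all names, and the median was 0.12. Under SD 2 were higher, 1 was lower and the median was 0.04. The higher one under vehicle was Ptgs2, with 0.214 and 0.577 RPKM, and the lower one Nrn1, which encodes the secreted neurite factor neuritin, with 52.9 and 34.0 RPKM. Bdnf had 1.94 and 2.52 RPKM, Homer1 4.60 and 4.53, Nptx2 3.06 and 2.87, and Vgf 33.3 and 37.8 RPKM. Of the 22 upstream kinases and transcription factors, 3 were higher in G93A under vehicle (Elk3, Mef2c and Crem) and 1 lower (Camk4), shares of 13.6% and 4.55% that lie near the 14.4% and 5.31% of all names, with a median of -0.09. Srf had 4.68 and 4.64 RPKM and Creb1 6.49 and 8.34 RPKM in WT vehicle and G93A vehicle. Camk4, a neuronal kinase that acts on CREB, had 4.34 and 2.69 RPKM.

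With SD, 1 of the 82 listed relatives was past 1.5-fold upward in G93A cord and 2 downward (1.22% and 2.44%, against 2.97% and 2.55% of all names), and in WT cord 0 were past it upward and 3 downward (3.66%, against 2.80% of all names). In G93A cord Cyr61 was higher, and Egr4, with 0.319 and 0.0852 RPKM, and Ptgs2, with 0.577 and 0.286 RPKM, were lower. In WT cord Egr4 (0.219 and 0.103 RPKM), Dusp5 (0.716 and 0.412 RPKM) and Sgk1 (36.5 and 18.4 RPKM) were lower. Sgk1 is also on the list of 7 glucocorticoid response genes, of which 1, Zbtb16, was past 1.5-fold upward in WT (1.90 and 3.56 RPKM) and in G93A (2.87 and 4.45 RPKM).

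**Figure D4:**
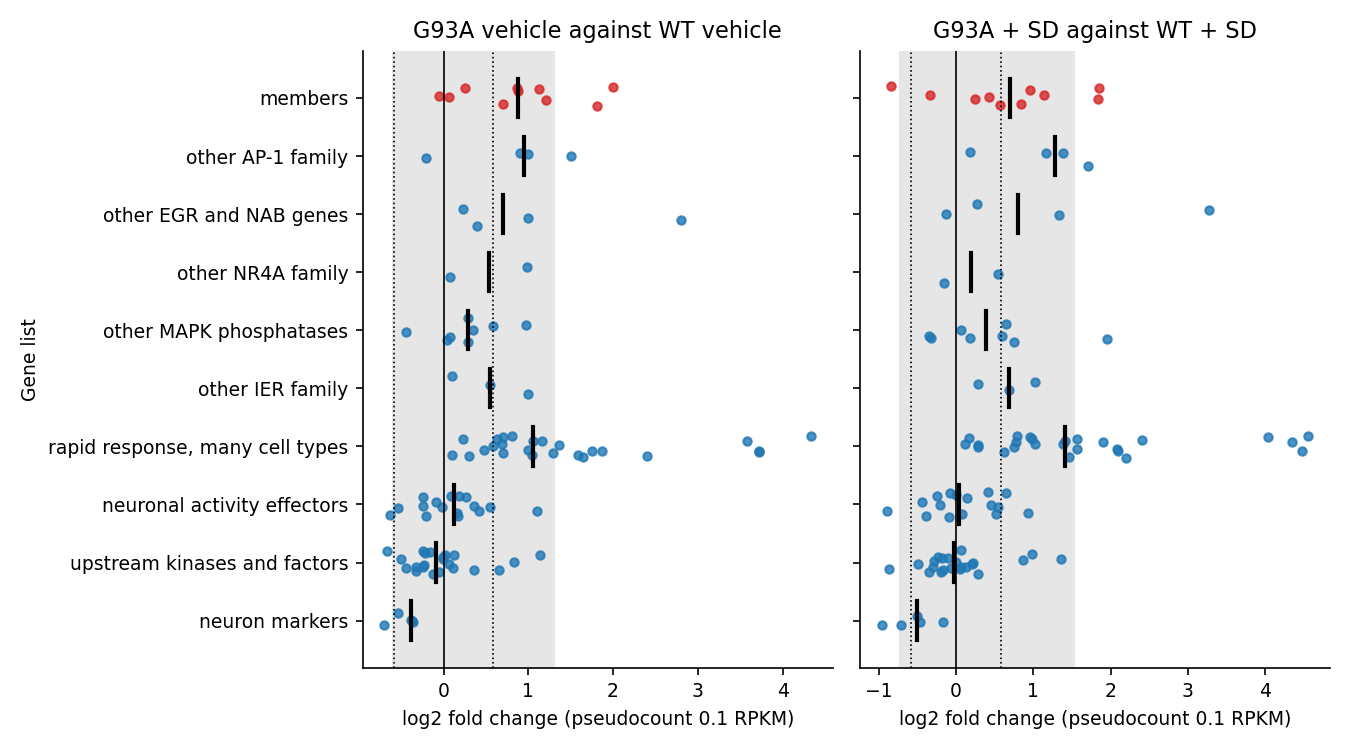
Log2 fold change of G93A against WT (pseudocount of 0.1 RPKM) for the members and the listed genes, under vehicle (left) and under SD (right). Each point is a gene, the black bar is the list's median, the grey band spans the 5th to the 95th percentile of all gene names and dotted lines mark 1.5-fold. The rapid response list has a median of 1.05 under vehicle against 0.12 for the neuronal activity effectors and -0.39 for the neuron markers.

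Markers of cell types moved with the genotype as well. Of all names, 14.4% were at least 1.5-fold higher in G93A under vehicle and 17.1% under SD, and 5.31% and 7.82% were lower. Of the 8 microglial and macrophage markers 6 were at least 1.5-fold higher in G93A under vehicle and 7 under SD, and all 8 were above WT in both pairs. The 6 astrocyte markers summed to 990 and 929 RPKM in WT and to 3066 and 3639 RPKM in G93A, vehicle first, with Gfap as the largest term of each sum, and 4 of the 6 were past the threshold under vehicle and 5 under SD. The 5 neuron markers measured summed to 2033, 2030, 1347 and 1163 RPKM in the same order. Under vehicle 1 of them, Snap25, was at least 1.5-fold lower, and under SD 2 were, Snap25 and Eno2. Of the 7 motor neuron markers 2 were lower by the threshold under vehicle (Slc18a3 and Mnx1) and 4 under SD (Chat, Slc18a3, Slc5a7 and Mnx1). Isl1 and Calca lay above WT in both pairs, Calca with 17.5 and 20.6 RPKM in WT and 25.4 and 24.4 RPKM in G93A, vehicle first. Of the 4 red blood cell markers measured 3 were higher by the threshold under vehicle, with a median of 0.59 and sums of 28.0 and 41.9 RPKM, and 0 under SD, with a median of -0.29. The 6 endothelial markers had a median of -0.15 under vehicle and -0.23 under SD. The 6 oligodendrocyte markers summed to 8814 and 9067 RPKM in WT and to 7172 and 6573 RPKM in G93A, vehicle first. Of these markers 0 were lower by the threshold under vehicle and 1 under SD. Of the 7 glucocorticoid response genes, a list kept because Dusp1 is also induced by glucocorticoids, 2 were higher by the threshold under vehicle (Sgk1 and Pdk4). Under SD 4 were (Sgk1, Pdk4, Per1 and Cdkn1a), of which Sgk1 and Per1 are on the rapid response list as well. The medians were 0.57 and 0.98, and 0 were lower by the threshold in either pair. Tsc22d3 lay below WT in both, with 63.7 (WT) and 50.5 RPKM (G93A) under vehicle and 68.7 and 46.9 RPKM under SD. Fkbp5 was near 0 under vehicle, with a log2 difference of 0.05. The part of cell composition in the values of the members was not tested.

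The genes outside these lists whose pattern over the 4 libraries lay nearest to the mean pattern of the 10 members were Pfkfb4, Echdc2, Ldha, Tmem179b and Rps4x, at a distance of 0.04 to 0.06 between centred log2 profiles, against a median distance of 0.79 over the 12857 names compared. They were picked as the nearest, so a distance below the median was fixed by the choice. The mean pattern is not that of every member. Under vehicle the ratio of G93A to WT was 4.06 for Fos and 0.966 for Arc. Ldha, a subunit of lactate dehydrogenase, had 24.8 and 27.3 RPKM in WT and 45.5 and 44.0 RPKM in G93A. In all, 26 names lay within 0.1 of the members' mean.

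In GRCm38, Junb and Ier2 share chromosome 8, Arc and Nr4a1 share chromosome 15, and the other members are on chromosomes of their own. In GENCODE M21, Fos spans 85473890 to 85477273 on the plus strand of chromosome 12 with 4 exons, and Arc spans 74669083 to 74672570 on the minus strand of chromosome 15 with 3 exons in its listed transcript. Junb, a gene with a single exon in its listed transcript, spans 84974484 to 84978718 on the minus strand of chromosome 8 and overlaps Prdx2 on the plus strand, and Dusp1, from 26505590 to 26562128 on the minus strand of chromosome 17, overlaps 4 annotated genes. The exons of the listed transcript shared 0 bases with exons of another gene for each of the 10 members.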

How the data were processed

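PolyA RNA of lumbar spinal cord was sequenced in 4 libraries, 1 per condition. Per the methods and the submitters' processing notes, the authors aligned reads with STAR to GRCm38 (mm10) and counted them with HTSeq against Ensembl genes. The authors deposited 1 table of RefSeq transcripts (23750 rows) with RPKM values, a unit inferred from the values, since values multiplied by length gave nearly the same total in every library. How counts became these values is not given in the sources used here. Its 3 ratio columns hold the authors' own comparisons and were not used.

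Rows of a name were averaged. Log2 fold changes had a pseudocount of 0.1 RPKM, which understates changes of low genes, and 1.5-fold, the fold the study uses, was the threshold. Printed ratios have no pseudocount. Transcript lengths came from GENCODE M21 (97.0% of rows). The commonest product of RPKM and length between 15 and 60 on transcripts over 500 bases was taken as 1 read pair, so read pairs and the 95% exact intervals built on them are estimates of counting error alone. Motifs were counted in RefSeq promoters.

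The members, lists and comparisons were chosen with earlier results of these data known. Named genes are the members, listed genes, cell type markers and the 5 names nearest in profile, and those named from a list as short of 1.5-fold were picked after their values were seen. Alternatives were no pseudocount, a pseudocount of 1 RPKM, a mean of at least 1 RPKM, median-ratio scaling, 2-fold and the highest row of a name. Versions were Python 3.11.15, numpy 2.4.6, pandas 2.3.3, scipy 1.17.1 and matplotlib 3.10.9. The calls were tested on simulated data, which held no spread between animals and no low genes, and whose changed genes were all well past 1.5-fold. Calls of the scarcer members and of changes near 1.5-fold were not checked by that test.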

Additional observations from a re-analysis of the deposited data

Results flagged for a closer look

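With 1 library per condition, the change with SD went in opposite directions in WT and in G93A for 5 of the 10 members, against 44.6% of all gene names, so the count itself is near the background, and the difference was not tested. The values are the log2 change with SD in G93A minus that in WT, with a pseudocount of 0.1 RPKM. For Arc, higher with SD in WT and lower in G93A, the difference was -0.80. For Egr1 it was -0.65, again higher in WT and lower in G93A. For Egr3 it was -0.60, from 0.48 in WT and -0.12 in G93A, and for Fosb -0.46, from 0.03 in WT and -0.44 in G93A. For Npas4, which was lower with SD in WT and higher in G93A, it was 0.18, and both changes of Npas4 were within counting error. Of these 5 genes, only Arc and Egr1 had counting intervals away from 0 in both genotypes.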

How the results depend on the processing

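No paired analysis was possible because each condition has 1 library. Of 160 values of single members under the alternatives, 156 stayed, 4 moved and 0 reversed. A value stayed if it differed from the main one by less than the distance between the middle and the end of its counting interval. So a value could stay and yet lie just outside the interval. With a pseudocount of 1 RPKM, Nr4a1 under vehicle and Ier2 under SD did. All 4 that moved did so with that pseudocount, which shrinks low values by construction. With that pseudocount the median of the members in G93A vehicle against WT vehicle was 0.61. Members higher in G93A under vehicle numbered 6, without Fosb, against 8.31% of all names. In G93A + SD 0 members were lower than in G93A vehicle, against 0.455% of all names, so that Arc no longer counted there. Members apart by 1.5-fold in both libraries of each genotype numbered 3, and the share of all names was not computed for that count. Among members with a mean of at least 1 RPKM, which leaves out Fosb, Egr3 and Npas4, the medians of the genotype comparisons were 1.13 under vehicle and 0.95 under SD. At 2-fold, 4 members were higher in G93A under vehicle and 3 under SD (7.34% and 9.27% of all names). In G93A + SD 0 were lower than in WT + SD or G93A vehicle (1.80% and 0.723% of all names). At that fold 2 members were apart from both WT libraries in both G93A libraries, a count for which the share of all names was not computed. Median-ratio scaling and no pseudocount left the 8 counts of members within 1.5 times, but without a pseudocount the shares of all names past 1.5-fold with SD grew to 8.89% higher and 7.46% lower in G93A and 7.40% and 8.82% in WT. The shares between the genotypes grew to 20.7% higher and 10.5% lower under vehicle and 23.8% and 12.8% under SD. Among names averaging 1 RPKM or more the shares past 1.5-fold with SD shrank to 1.24% and 0.932% in G93A and 0.732% and 1.16% in WT. Depth limits Fosb, Egr3, Npas4 and Ier2 most, with fewer than 200 estimated read pairs per library, and the spread between animals is unknown for every gene.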
